A study of Mus musculus with 2 samples.

Results

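The Clcn5 intron microRNA (miRNA) cluster of the mouse X chromosome comprises 5 precursor genes, Mir532, Mir188, Mir362, Mir501 and Mir500. They were chosen by gene identifier from the 1973 miRNA genes counted in the series, and all 5 had a row in both libraries. The libraries are 2 biological replicates of one group, healthy forebrain of B6NCrl mouse embryos at 16.5 days, each made from total RNA of tissue pooled over males and females. Replicate 2 was pooled from 41 embryos, and no number of embryos is stated for replicate 1. Both pools carry the same donor record, and their biosample records are separate. With a single tissue, age and strain, no comparison between conditions exists, and the questions addressed are how much of each miRNA the forebrain pools held and how closely the pools agreed.

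A miRNA precursor is a hairpin that is cut into a 5p and a 3p arm, of which the loaded arm guides repression of mRNAs that pair with its seed, bases 2 to 8. Intronic miRNAs of this kind can be transcribed together with the host gene. Clcn5, the host, encodes the endosomal chloride and proton exchanger ClC-5, best known from the proximal tubule of the kidney. In rat hippocampal neurons miR-188 is an activity-regulated miRNA that represses the semaphorin receptor Nrp2, and miR-501-3p acts in dendrites on the glutamate receptor subunit GluA1. In human gastric cancer cells miR-532-5p represses RUNX3, and miR-362 and miR-500 act on the NF-kappa-B inhibitor CYLD.

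The mature forms are shown first because the genes fall into sequence groups that also differ in level. RefSeq sequences (GRCm38.p6) were found for all 5 precursors and for 9 mature forms, printed 5′ to 3′ with the seed in capitals. The arms of Mir532 are miR-532-5p and miR-532-3p. The RefSeq sequences used here held no entry for miR-532-5p, so that arm was compared with no other form. The seed comparisons cover the 9 printed forms.
mmu-miR-532-3p: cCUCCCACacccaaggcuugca
mmu-miR-188-3p: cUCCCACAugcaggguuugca
mmu-miR-188-5p: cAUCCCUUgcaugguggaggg
mmu-miR-362-5p: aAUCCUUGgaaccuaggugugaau
mmu-miR-500-5p: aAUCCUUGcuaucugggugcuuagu
mmu-miR-501-5p: aAUCCUUUgucccugggugaaa
mmu-miR-501-3p: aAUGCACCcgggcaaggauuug
mmu-miR-500-3p: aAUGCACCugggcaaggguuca
mmu-miR-362-3p: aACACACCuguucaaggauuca

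Mir362, Mir501 and Mir500 formed one sequence group. The seed AUCCUUG was common to miR-362-5p and miR-500-5p, and miR-501-5p shared its first 6 bases, AUCCUU. The seed AUGCACC was common to miR-501-3p and miR-500-3p, which matched at 18 of 22 positions. The 3p arm of Mir362 carried another seed, ACACACC, although it matched miR-500-3p at 17 of 22 positions and miR-501-3p at 15. Among the 1738 mature forms of the RefSeq table, AUCCUUG and AUGCACC were found in no further gene. The seed of miR-362-3p was also that of one miRNA outside the cluster.
mmu-miR-329-3p: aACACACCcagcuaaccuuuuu

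Mir532 and Mir188 formed the other group by their 3p arms. These shared the 8 bases CUCCCACA, which start at base 2 of miR-532-3p and at base 1 of miR-188-3p. Moved by 1 base, the 2 arms matched at 17 of 21 positions. Because of that move their seeds differ, and neither was found in any further mature form. The seed of miR-188-5p, AUCCCUU, was also that of miR-7061-3p, whose gene Mir7061 was not analysed here.

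All 5 genes lie on the minus strand of chromosome X in the mm10 (GRCm38) assembly, inside a single intron of Clcn5 (7153810 to 7319358). In order along the transcript they are Mir532 (7248402 to 7248497, ENSMUSG00000070139.1), Mir188 (7247989 to 7248056, ENSMUSG00000065398.1), Mir362 (7241982 to 7242046, ENSMUSG00000070100.1), Mir501 (7241243 to 7241351, ENSMUSG00000076251.1) and Mir500 (7237683 to 7237774, ENSMUSG00000070108.2). The intron runs from 7213011 to 7316658 and is 103648 bases long. Of the 5 Clcn5 transcripts in GENCODE M21, 3 span it, and the other 2 start downstream of the whole cluster. None of the miRNA genes overlaps a Clcn5 exon. In the spanning transcript with 15 exons, Mir532 begins 70736 bases from the start site and Mir500 81459 bases from it.

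The positions repeat the sequence groups. Mir532 and Mir188 are 345 bases apart, 5942 bases separate Mir188 from Mir362, and Mir362 and Mir501 are 630 bases apart. Mir500 lies a further 3468 bases downstream, so the 5 genes cover 10815 bases. GENCODE M21 places no other miRNA gene within 10000 bases on either strand, and one other gene there, the small nucleolar RNA Gm26401 on the opposite strand.

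The cluster was measured with raw read counts per gene on the annotated strand, given here also as counts per 1000000 gene-strand counts (CPM). A read can cover a whole mature form, so CPM is not divided by length unless stated, and the 2 arms of a gene are summed in its count. Replicate 2 held 4158686 gene-strand counts in total, and replicate 1 held 5060112. The 95% intervals given are exact Clopper-Pearson intervals and cover no error beyond counting. No molecular identifiers are mentioned for these reads, so copies of a molecule cannot be told from separate molecules. Multimapping reads made up 43.3% of the reads in replicate 2 and 40.5% in replicate 1, and no gene's count includes them. The longest stretch that a member shared with another of 2202 GENCODE miRNA transcripts on either strand was 14 bases, between Mir501 and Mir500, and the longest for the others was 11 to 13 bases. Matches elsewhere in the genome were not analysed here.

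The precursors of Mir501 and Mir500, the closest relatives in the cluster, are printed with the mature arms in capitals. The 14 shared bases begin at position 17 of the first and position 14 of the second, counted from the 5′ end, and run into the 5p arm.
Mir501 precursor: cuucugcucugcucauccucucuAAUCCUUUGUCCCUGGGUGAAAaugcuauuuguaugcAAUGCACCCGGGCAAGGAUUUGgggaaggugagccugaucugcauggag
Mir500 precursor: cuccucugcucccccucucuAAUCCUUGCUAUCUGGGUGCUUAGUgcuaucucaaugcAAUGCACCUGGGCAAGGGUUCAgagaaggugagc

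The tissue label was set beside marker miRNAs. Of the 9 neural markers with a row, 8 reached 5 counts in each library, and the list summed to 22637 CPM in replicate 2 and 23314 CPM in replicate 1. Their mean levels ranged from 1.07 CPM for Mir124a-3 to 12348 CPM for Mir137, with Mir124a-1, Mir124a-2 and Mir9-2 also at 4.27 CPM or below. Endothelial Mir126a stood at 18999 CPM in replicate 2 and 16611 CPM in replicate 1. The kidney and epithelial list had 2492 CPM in replicate 2 and 1830 CPM in replicate 1. The other lists were lower. In replicate 2 they had 482 CPM (Hox cluster), 222 CPM (erythroid), 151 CPM (myeloid Mir223), 64.9 CPM (hepatocyte Mir122) and 26.7 CPM (muscle). In replicate 1 they had 753 CPM (Hox cluster), 281 CPM (erythroid), 96.6 CPM (myeloid Mir223), 97.8 CPM (hepatocyte Mir122) and 21.3 CPM (muscle). The listed markers Mir9-1, Mir142 and Mir1a-2 had no row. Of the 9 neural genes 7, and of the muscle genes Mir1a-1 and Mir133a-1, hold a run of 22 bases found in a further miRNA gene. The same holds for Mir126a, for Mir451a of the erythroid list and for Mir194-2 of the kidney and epithelial list. A read within such a run fits several genes, and it is not counted where these lie at separate places in the genome. The 0 counts of Mir1a-1 and Mir133a-1 therefore do not show that their miRNAs were missing. Mir126a shares its run only with Mir126b, and Mir451a only with Mir451b. Whether these pairs lie at the same place was not analysed here, and Mir126a and Mir451a had counts in each library. The part of these other cell types in the levels of the cluster was not tested, and in pooled tissue fewer cells of a type and less RNA per cell cannot be told apart.

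Mir532 and Mir188, the first genes along the transcript, were the most abundant members, and together they held most of the cluster's reads. Their joint share was 75.7% (75.1% to 76.4%) in replicate 2, beside 76.3% (75.7% to 76.8%) in replicate 1. The cluster as a whole had 17855 counts in replicate 2 and 22334 in replicate 1. Its summed level was 4354 ± 85.1 CPM (SD, n = 2), or 0.435% ± 0.00851 of all gene-strand counts. All 5 members reached 5 counts in each library, as did 438 of the 1973 genes.

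Mir532 had 6922 counts (1664 CPM) in replicate 2 and 8834 counts (1746 CPM) in replicate 1, a mean of 1705 ± 57.5 CPM. Mir188 had 6602 counts (1588 CPM) in replicate 2 and 8198 counts (1620 CPM) in replicate 1, a mean of 1604 ± 23.1 CPM. The ranges of these 2 genes over the replicates did not overlap, but the gap was small, with Mir532 above Mir188 by a factor of 1.05 in replicate 2 and 1.08 in replicate 1. Their order depended on the scale. Per base of precursor, Mir188 stood at 23.6 ± 0.339 CPM and Mir532 at 17.8 ± 0.599 CPM.

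Mir501 had 3010 counts (724 CPM) in replicate 2 and 3713 counts (734 CPM) in replicate 1, a mean of 729 ± 7.07 CPM. It was the most abundant of the related genes Mir362, Mir501 and Mir500. Mir500 had 912 counts (219 CPM) in replicate 2 and 1037 counts (205 CPM) in replicate 1, a mean of 212 ± 10.2 CPM. Mir362 was the least abundant member, with 409 counts (98.3 CPM) in replicate 2 and 552 counts (109 CPM) in replicate 1, a mean of 104 ± 7.59 CPM.

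**Figure D1:**
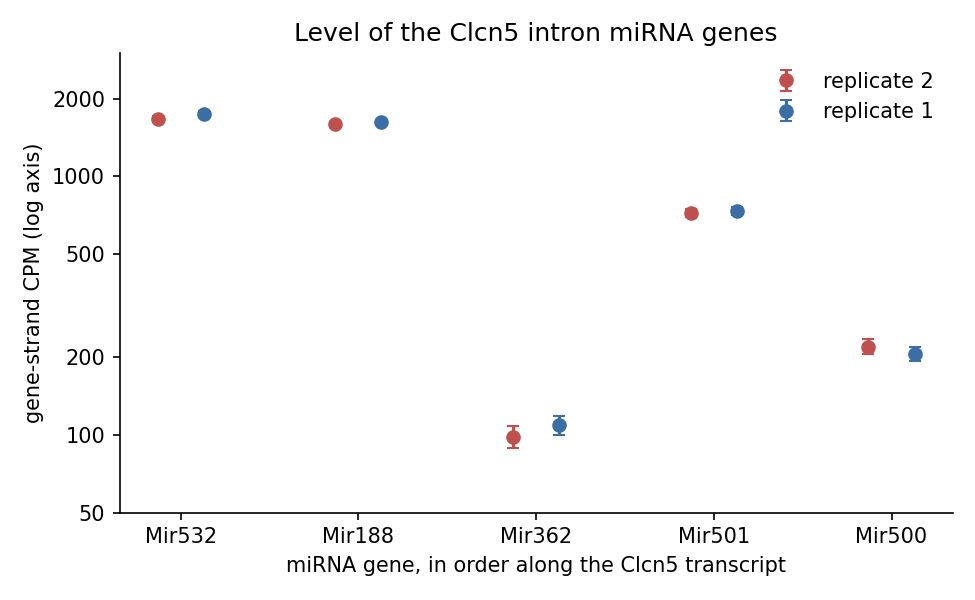
Gene-strand CPM (log axis) of each gene of the cluster, in order along the Clcn5 transcript, in replicate 2 and replicate 1, with exact 95% counting intervals. Mir532 and Mir188 lie at 1588 CPM or above in both libraries, Mir501 near 729 CPM, and Mir500 and Mir362 at 219 CPM or below.

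The order Mir532, Mir188, Mir501, Mir500, Mir362 was the same in both libraries, and no neighbours in it had overlapping ranges on the CPM scale. Mir188 exceeded Mir501 by a factor of 2.19 in replicate 2 and 2.21 in replicate 1. Mir501 exceeded Mir500 by 3.30 in replicate 2 and 3.58 in replicate 1. Mir500 exceeded Mir362 by 2.23 in replicate 2 and 1.88 in replicate 1, the step that varied most for its size among the 4. From Mir532 to Mir362 the factor was 16.9 in replicate 2 and 16.0 in replicate 1. Per base of precursor the order was the same except for Mir188 and Mir532, with Mir501 at 6.69, Mir500 at 2.31 and Mir362 at 1.60 CPM per base.

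**Figure D2:**
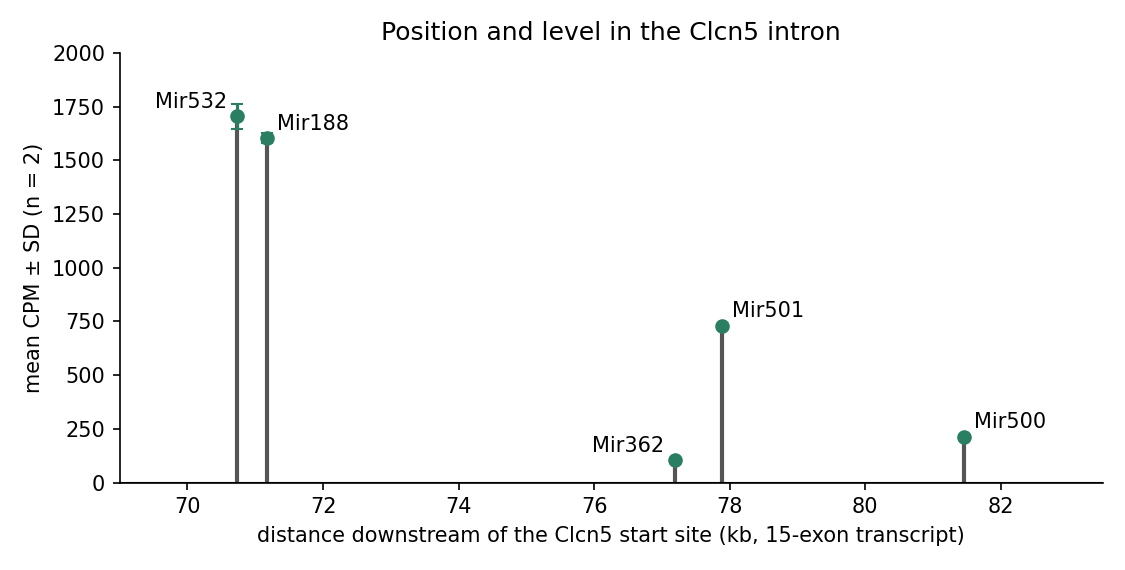
Mean CPM ± SD (n = 2) of each gene, drawn at its distance in kilobases downstream of the Clcn5 start site of the transcript with 15 exons. The closely spaced pair Mir532 and Mir188 stands highest, and the neighbours Mir362 and Mir501, 630 bases apart, differ in level.

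Level did not simply follow distance along the intron. Mir362, the third gene, was below both genes that follow it, and it differed from its neighbour Mir501 by more than the spread between replicates. Sharing a seed did not go with sharing a level either. Mir501 and Mir500 have the same 3p seed and differed by more than 3-fold in both libraries, and Mir500 and Mir362 have the same 5p seed and also had ranges that did not overlap. Since the arms are summed in the counts, the level at which each seed was present was not measured.

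The make-up of the cluster needs no scaling between libraries and was close in the pools. Mir532 took 38.8% (38.1% to 39.5%) of the cluster's counts in replicate 2, beside 39.6% (38.9% to 40.2%) in replicate 1. Mir188 took 37.0% (36.3% to 37.7%) in replicate 2, beside 36.7% (36.1% to 37.3%) in replicate 1. For these 2 genes the intervals of the libraries overlap. They also overlap for Mir501, at 16.9% (16.3% to 17.4%) in replicate 2, beside 16.6% (16.1% to 17.1%) in replicate 1.

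The less abundant members showed the same. Mir500 took 5.11% (4.79% to 5.44%) in replicate 2, beside 4.64% (4.37% to 4.93%) in replicate 1. Mir362 took 2.29% (2.08% to 2.52%) in replicate 2, beside 2.47% (2.27% to 2.68%) in replicate 1. Mir500 had the largest relative difference of its mean share among the 5 genes, 4.88% ± 0.329, and its intervals overlap too. Overlap of intervals does not show that the shares were equal.

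**Figure D3:**
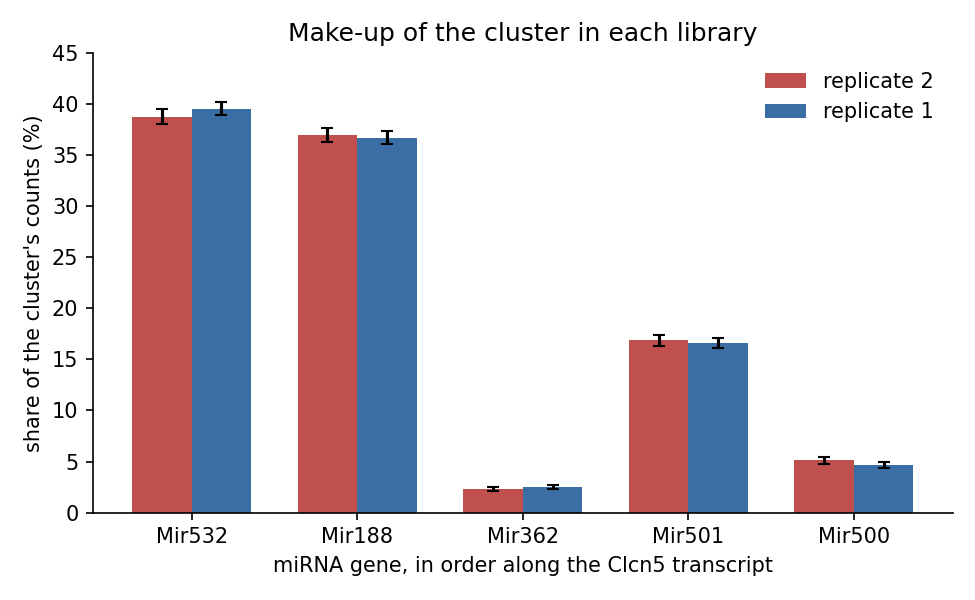
Share of the cluster's gene-strand counts (%) taken by each gene in replicate 2 and replicate 1, with exact 95% counting intervals. For each of the 5 genes the intervals of the libraries overlap, and Mir532 and Mir188 together hold 75.7% in replicate 2 and 76.3% in replicate 1.

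Set against all genes, the members differed little between the libraries. The difference was tested with an exact binomial test, two-sided, on each pair of counts. Library totals were scaled with TMM factors (trimmed mean of M values), and p-values were adjusted over the 466 tested genes after Benjamini and Hochberg, with calls at an adjusted p under 0.05. The test compares 2 libraries and allows for no spread between pools. By this test 4 of the 5 members were called higher in replicate 2 and 0 lower, where 45.3% of all tested genes were called, 23.4% higher and 21.9% lower. Among the 115 other genes whose summed count lay in the members' range, 961 to 15756 counts, 71.3% were called, so at this depth a call is common.

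The sizes were small. The log2 ratio of replicate 2 over replicate 1 was 0.24 for Mir500 (adjusted p = 0.000709, exact binomial test), 0.12 for Mir501 (0.00129), 0.11 for Mir188 (5.64e-06) and 0.075 for Mir532 (0.00317). For Mir362 it was -0.0050 with an adjusted p of 1. The median size of the members' log2 ratios, sign left out, was 0.11, beside 0.27 for the 115 other genes of like depth.

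These calls rest on the scaling. With unscaled library totals every log2 ratio is lower by 0.14, and the ratios became -0.069 for Mir532, -0.029 for Mir188, -0.020 for Mir501, -0.15 for Mir362 and 0.098 for Mir500. Then only Mir532 was called, and as lower (adjusted p = 0.00734, exact binomial test). With TMM the members' median was 0.11, beside 0.0071 for all tested genes. With unscaled totals it was -0.029, beside -0.14 for all tested genes.

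**Figure D4:**
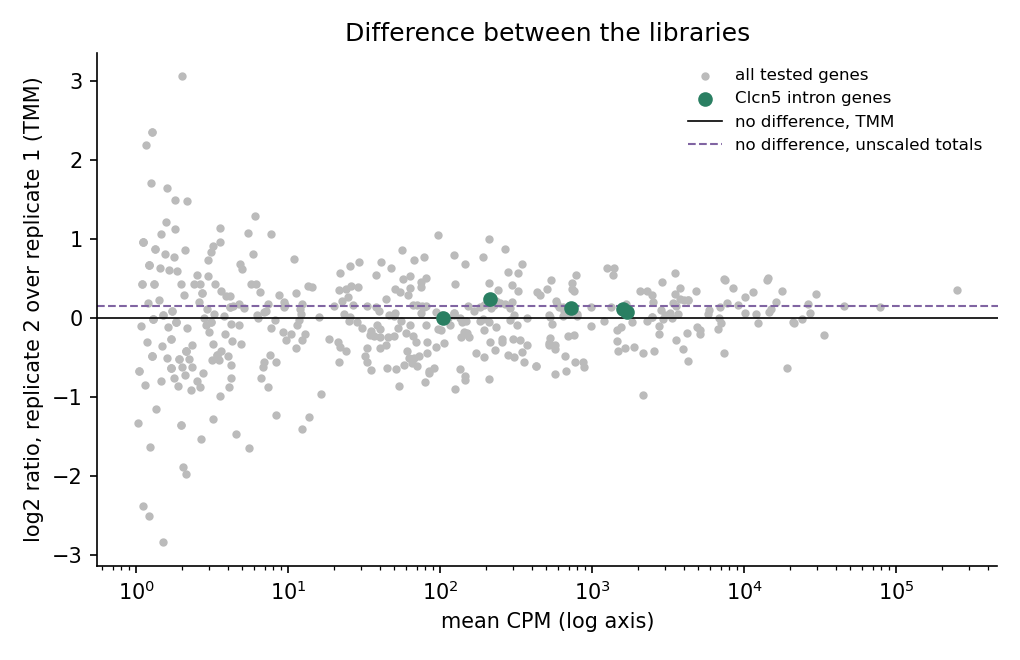
Log2 ratio of replicate 2 over replicate 1 (TMM) against mean CPM (log axis) for the 466 tested genes, with the 5 genes of the cluster in green. They lie between -0.0050 and 0.24, of which 4 lie above the solid line of no difference under TMM, and 1 lies above the dashed line of no difference under unscaled totals.

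Reads of the cluster came from one strand. None of the 5 genes had an opposite-strand read in either library, which allows an opposite-strand share of the cluster of up to 0.0168% in replicate 2 and 0.0134% in replicate 1. Over all genes 1.70% of counts in replicate 2 and 1.91% in replicate 1 were on the opposite strand. For Mir362, the gene with the fewest reads, the limit is 0.733% in replicate 2 and 0.543% in replicate 1. A lack of opposite-strand reads was not particular to the cluster. Mir93, Mir106b, Mir25, Mir322 and Mir1298 of the comparison clusters had none either, and Mir98 had 4 in replicate 2 and 3 in replicate 1. Mir299b alone had 1676 in replicate 2 and 2399 in replicate 1.

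The Clcn5 cluster held 9.60% of the chromosome X counts in replicate 2 and 10.6% in replicate 1. Of 120 miRNA genes on that chromosome, 45 reached 5 counts in each library. Mir532 ranked 6th by mean CPM among them, Mir188 7th, Mir501 10th, Mir500 19th and Mir362 28th. Over all genes Mir532 ranked 73rd, Mir188 76th, Mir501 98th, Mir500 156th and Mir362 192nd.

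Other miRNA clusters were set beside it by description, without a test. The cluster in an intron of the replication factor gene Mcm7, whose miRNAs act in proliferating cells, summed to 25790 ± 331 CPM and ran from Mir25 at 656 ± 11.5 CPM to Mir93 at 15041 ± 272 CPM, a factor of 22.9. The factor in the Clcn5 cluster was 16.4. On chromosome X the cluster of Mir98 and Mirlet7f-2 in Huwe1 summed to 13311 ± 1421 CPM, with Mir98 at 8485 ± 968 CPM and Mirlet7f-2 at 4826 ± 454 CPM.

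Some genes of the X-linked clusters are copies with a 22-base run found in a further miRNA gene, so that part of their reads may be missing from the counts. This holds for Mirlet7f-2, Mir450-1, Mir450-2, Mir19b-2 and Mir92-2, and no spread within their clusters is read from them. The Mir322 to Mir450 cluster summed to 12839 ± 1092 CPM. Among its genes without such a run, Mir450b was the lowest and Mir322 the highest, at 11444 ± 1049 CPM. Below Mir450b in counted reads lay the copy Mir450-2, at 2.07 ± 0.133 CPM. The miRNAs in introns of Htr2c, a serotonin receptor gene of neurons, summed to 1725 ± 232 CPM and ran, over the 5 genes with a count, from Mir1912 at 3.20 ± 0.785 CPM to Mir1298 at 1466 ± 212 CPM. The Mir106a to Mir363 cluster summed to 636 ± 57.1 CPM. Its 4 genes without such a run ranged from Mir18b at 25.2 ± 2.34 CPM to Mir106a at 211 ± 19.9 CPM. The copy Mir19b-2 was lower in counted reads, at 3.40 ± 1.06 CPM. Mir221 and Mir222 summed to 350 ± 3.35 CPM, with Mir221 at 226 ± 1.65 CPM and Mir222 at 124 ± 5.01 CPM. The Clcn5 cluster, at 4354 ± 85.1 CPM, thus lay below the Huwe1 and Mir322 clusters and above the other 3 on the X chromosome in counted reads, by more than the spread between replicates in each case.

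**Figure D5:**
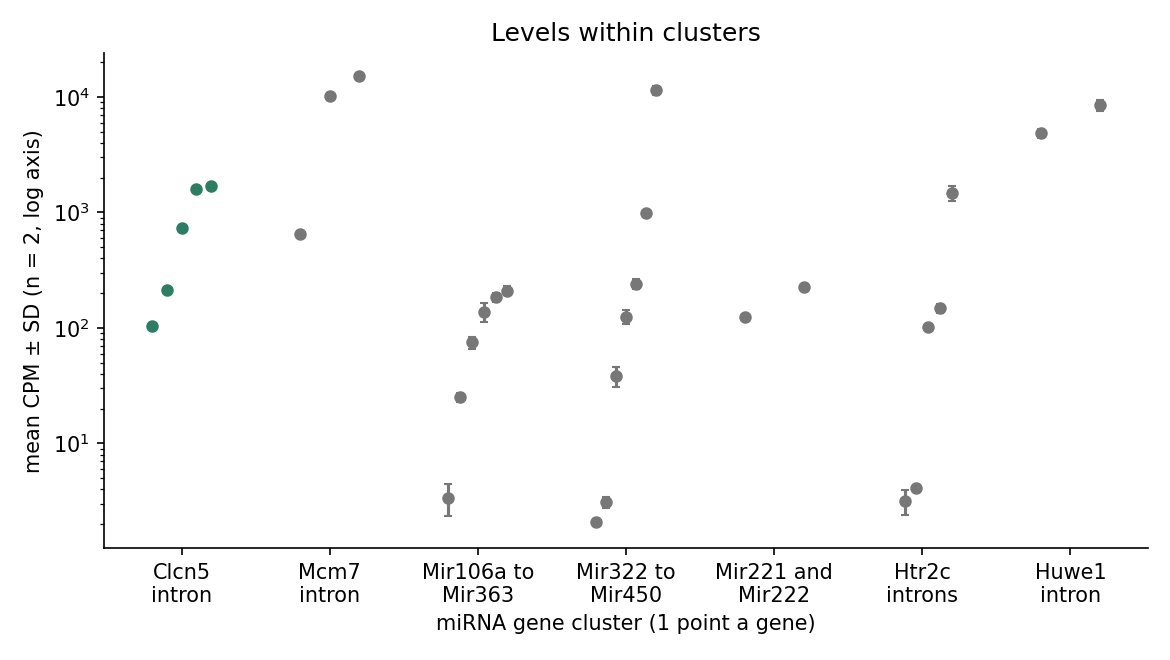
Mean CPM ± SD (n = 2, log axis) of each gene of the Clcn5 cluster (green) and of 6 other miRNA gene clusters (grey), 1 point a gene with a count. The 5 Clcn5 genes span 104 to 1705 CPM. Copies that share sequence with another gene may be undercounted.

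Members were matched with the non-member nearest in level, by Euclidean distance of log2(CPM + 1) over the 2 libraries, a likeness of level only. Mir532 and Mir188 were both nearest to Mir101b at 1663 ± 24.4 CPM. Mir501 was nearest to Mir9-3, a miRNA of neural progenitors and a copy that shares 22 bases with other genes, at 717 ± 27.6 CPM, and Mir500 to Mir488 at 215 ± 2.42 CPM. Mir362 was nearest to Mir1264 of the Htr2c cluster at 103 ± 5.58 CPM. Mir329 of chromosome 12, whose 3p arm has the seed of miR-362-3p, was at a level like that of Mir362 as well, with 323 counts (77.7 CPM) in replicate 2 and 563 counts (111 CPM) in replicate 1. Its range over the replicates covered that of Mir362. Unlike Mir362, Mir329 was called lower in replicate 2 with TMM (log2 ratio -0.37, adjusted p = 0.000536, exact binomial test).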

How the data were processed

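The authors deposited 1 table of raw counts per library, with an unstranded column, a column for each strand and 4 totals of reads in no gene. The mm10 assembly and GENCODE M4 were used, per the deposited file descriptions. The aligner, counter and trimming were not given in the sources used here. Unassigned reads stayed out of totals and tests: besides reads of several loci, 15.2% in replicate 2 and 19.1% in replicate 1 were unmapped, and 2.82% in replicate 2 and 2.50% in replicate 1 lay outside the listed genes. The larger strand column was taken as the gene strand.

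Names and positions came from GENCODE M21 by gene identifier, and sequences from RefSeq (GRCm38.p6). Listed cluster symbols without a row were looked up among RefSeq synonyms. This gave Mir92-2 for Mir92a-2, and Gm24627 for Mir1911 of the Htr2c list. Gm24627 had no count in either library. TMM factors were computed over the tested genes, those whose 2 counts sum to 10 or more, in edgeR 4.0.16 under R 4.3.3. edgeR's quasi-likelihood test was not run, as there is 1 group. Log2 ratios add 0.5 to each count. The binomial test (scipy 1.17.1) was tested on simulated data with counting noise only. That simulation held no spread between pools, so it does not show how the test behaves with such spread. Limits for a count of 0 use 3 counts.

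Alternatives were unscaled totals, DESeq2 1.42.0 size factors, unstranded counts, minimum summed counts of 1 and 100, all reads as denominator, and each library alone. The members, gene lists and tests were chosen with earlier results of these data known. Named genes are the members, the highest and lowest gene of each comparison cluster and the nearest gene in level. Genes that share a seed and neighbours within 10000 bases are named too. Also named are the lowest cluster genes without a shared run, copies and marker genes that bear on the counts, and Mir299b for its opposite-strand reads.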

Additional observations from a re-analysis of the deposited data

How the results depend on the processing

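With unscaled library totals the log2 ratios (replicate 2 over replicate 1) of Mir188 (-0.029), Mir501 (-0.020) and Mir532 (-0.069) changed sign, and that of Mir500 (0.098) was no longer called. The members called were then 1, with 0 higher and 1 lower, and over all genes 67 were higher and 155 lower, against 109 higher and 102 lower with TMM. With a minimum summed count of 1, Mir532 was not called (0.051), and with unstranded counts the ratio of Mir362 was 0.002254. The cause was not tested, beyond the shift that the scaling itself gives. DESeq2 size factors and a minimum of 100 counts changed no sign and no call of a member.

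With all reads as denominator, by construction, mean CPM fell to 602 for Mir188, 38.9 for Mir362, 79.7 for Mir500, 274 for Mir501, 640 for Mir532 and 1635 for the sum. With unstranded counts Mir188 stood at 1575 CPM and Mir501 at 716 CPM. Shares within the cluster did not change under either. In a single library the summed level was 4293 CPM (replicate 2) or 4414 CPM (replicate 1). With 2 libraries, p-values and SDs measure only these pools, and depth limits Mir362 most. No paired analysis was possible because there is 1 group.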

Other observations

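Calls over the miRNA genes of chromosome X leaned to replicate 2 with TMM. Without the members, 16 of 41 tested X-linked genes were called higher in replicate 2 and 2 lower by the exact binomial test, with a median log2 ratio of 0.14. On the other chromosomes 89 of 419 tested genes were higher and 100 lower, with a median of -0.0090. With unscaled totals, 9 X-linked genes other than the members were higher and 7 lower (median -0.0090), and 58 genes of the other chromosomes were higher and 147 lower (median -0.15). The X-linked genes include clusters whose members are not independent observations, among them Mir98 with Mirlet7f-2 and Mir322 with its neighbours. The difference between the chromosomes was not tested.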
